A study of Sus scrofa with 96 samples.

Results

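Articular cartilage and synovium from the same operated knee were compared in Yucatan minipigs, 52 weeks after surgery on the anterior cruciate ligament (ACL). The 70 libraries of 35 operated knees entered, out of 96 libraries in the whole series, and each knee gave 1 cartilage and 1 synovium library. All operated knees had an ACL transection on 1 side of an adolescent animal. In the ACLT knees (n = 11) nothing further was done, in the RECON knees (n = 12) the ligament was replaced by a bone-patellar tendon-bone allograft, and in the REPAIR knees (n = 12) it was sutured and bridged with an extracellular matrix scaffold loaded with the animal's blood. Knee ACLT 12, with 2 libraries, was left out of the comparison and returned to it only as an alternative. The CON knees (12 knees, 24 libraries) were unoperated contralateral knees of 12 of the same animals, so they are controls that carry an operated joint on the other side. Both sexes were included.

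Articular cartilage is an avascular tissue in which sparse chondrocytes make and hold a matrix rich in type II collagen and the proteoglycan aggrecan. Synovium is a vascular lining in which fibroblasts and macrophages face the joint fluid, which they supply with hyaluronan and lubricin, and beneath which lie vessels, fat and immune cells. Both tissues share the joint fluid, and both respond after ACL injury. The cartilage samples came from the medial femoral condyle and the synovium samples from the lining attached to the medial meniscus. Cartilage was ground with a drill bit in frozen reagent and synovium was beaten in a bead instrument, so that tissue and homogenisation cannot be told apart in any value below. The study also listed lower mean RNA concentrations and absorbance ratios for cartilage than for synovium. These too cannot be told apart from the tissue.

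The measured quantity was the estimated count of read pairs for each of 46295 Ensembl transcripts. The files list transcripts by identifier and do not pair them with genes, and 0 of the 46295 identifiers matched the annotation used here. No gene, pathway or cell type is therefore named, transcripts are given by identifier, and the tissue labels could not be compared with known marker genes. Total counts ranged from 9043810 to 21937200 in cartilage (median 15260900) and from 8211350 to 19993000 in synovium (median 13526300), with the shallowest group in ACLT synovium (median 10848700). Levels are given as CPM, the count per 1000000 counts of the library total after scaling by the trimmed mean of M-values (TMM), and differences as log2 of cartilage over synovium. In pieces of whole tissue, fewer cells of a type and less RNA per cell cannot be told apart.

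The labels were compared with the data through transcripts that separated the tissues in the CON knees, which enter none of the 35 operated pairs. A cartilage set of 282 transcripts and a synovium set of 577 transcripts did not overlap between the 12 CON libraries of each tissue, differed by at least 16-fold and reached at least 10 CPM. The cartilage set took between 19.3% and 42.8% of the counts of the operated cartilage libraries (median 31.0%), and between 0.242% and 0.875% of the operated synovium libraries (median 0.498%). The synovium set took between 4.10% and 6.34% of the operated synovium libraries (median 5.32%) and between 0.0570% and 0.778% of the operated cartilage libraries (median 0.148%). Every one of the 70 libraries thus lay on the side of its label by both sets. Within cartilage, 4 libraries stood apart with the largest shares of the synovium set, which were 0.778% in REPAIR 7, 0.629% in RECON 7, 0.612% in ACLT 9 and 0.573% in ACLT 4, against at most 0.354% in the other cartilage libraries. The counts of calls, the library measures and the fitted differences of the named transcripts are also given without these 4 knees, and their part in the other results was not tested.

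Cartilage and synovium of the operated knees differed in most of the transcriptome. Of 29326 transcripts tested, 19349 (66%) differed between the tissues of the same knee at an adjusted p under 0.05 (edgeR quasi-likelihood test with Benjamini-Hochberg adjustment, knee as block). Of the 29326 tested, 10030 (34.2%) were called higher in cartilage and 9319 (31.8%) were called higher in synovium. Without the 4 knees, 19009 of 29625 tested were called, with 9760 higher in cartilage and 9249 higher in synovium. The counts in each direction were close, and the larger one depended on the scaling: cartilage had 51.8% of the calls with TMM and 48.0% with the size factors of DESeq2, which moved the median of all transcripts from 0.05 to -0.01 on the log2 scale.

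**Figure D1:**
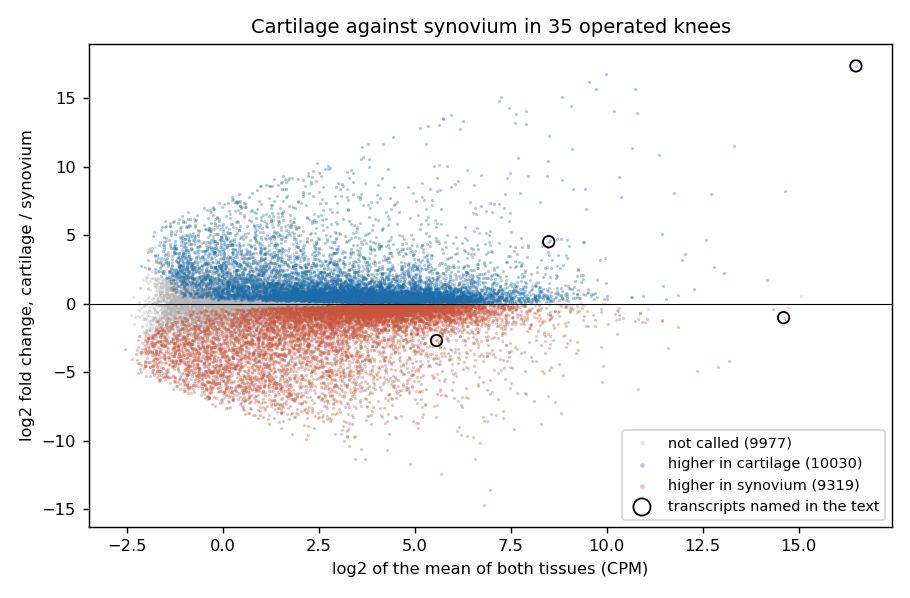
Each point is 1 of 29326 tested transcripts, with the log2 of its mean CPM over both tissues on the x axis and its log2 fold change of cartilage over synovium in 35 operated knees on the y axis. The 10030 transcripts called higher in cartilage are blue, the 9319 called higher in synovium are red, and the rings mark the 4 transcripts described by their values, among which ENSSSCT00000047570.3 lies at a log2 difference of 17.37.

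The differences were unequal in size. Transcripts higher in synovium differed by a median of 1.30 on the log2 scale (quartiles 0.55 and 3.33), and those higher in cartilage by a median of 0.75 (quartiles 0.40 and 1.68). A difference of at least 2-fold was fitted for 5390 of the transcripts called higher in synovium (57.8% of them) and for 3943 of those called higher in cartilage (39.3%). At 32-fold or more the numbers were 1126 (12.1%) and 503 (5.01%). At 256-fold or more the order was the other way, with 129 transcripts higher in cartilage against 102 higher in synovium. When the test itself asked for a difference beyond 2-fold (glmTreat of edgeR), 7013 of the tested transcripts (23.9%) passed. As shares of the tested transcripts, 2750 (9.38%) passed as higher in cartilage and 4263 (14.5%) as higher in synovium.

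For many transcripts the 2 tissues were close in level. The 95% intervals and every SE given below are approximate. The SE was taken as the absolute log2 difference over the square root of the F statistic of the test. The 95% interval of the log2 difference lay wholly within 0.5 of no difference for 6587 transcripts, and 3400 of these were also called. The interval reached a median of 0.34 to either side of the estimate over all tested transcripts. Among the transcripts with such a narrow interval, 270 were at 100 CPM or more in both tissues. In all, 9977 transcripts did not pass the test, with a median absolute difference of 0.30 and a median level of 3.27 CPM in the tissue where they were higher. Those called higher in cartilage had a median level of 13.1 CPM there and 7.21 CPM in synovium. Those called higher in synovium had a median level of 11.2 CPM there and 4.35 CPM in cartilage.

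Transcript length moved only modestly with the direction. Among tested transcripts shorter than 1000 bases, 28.4% were called higher in cartilage and 36.8% higher in synovium, whereas among those of 4000 to 8000 bases 36.8% were called higher in cartilage and 31.3% higher in synovium. The share called in either direction stayed between 63.9% and 68.1% in every length class. An offset for the effective length of each transcript in each library gave 19366 calls.

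Of the transcripts called higher in cartilage, the one with the highest mean level there was ENSSSCT00000047570.3 (4883 bases). It was at 57577 CPM in the lowest cartilage library, 160395 CPM in the median one and 375812 CPM in the highest one, and took between 5.99% and 26.6% of all cartilage counts (median 14.6%). In synovium it lay between 0 and 3.93 CPM with a median of 0.891 CPM, which corresponded to between 0 and 78 counts in a library. The tissues were therefore separated in all 35 knees, and the fitted difference was 17.37 on the log2 scale (SE 0.51, adjusted p = 2.7e-25 in the edgeR quasi-likelihood test). Its cartilage median was 145158 CPM in ACLT, 168874 CPM in RECON and 212944 CPM in REPAIR knees, and the ranges of the 3 surgeries overlapped. The highest cartilage value was that of REPAIR 2 and the lowest that of ACLT 9. Per length, its median was 68697 TPM (a share of all transcript molecules, per 1000000, with no TMM scaling) in cartilage and 0.421 TPM in synovium.

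A far steadier transcript was ENSSSCT00000086456.2 (9081 bases), which had the smallest adjusted p towards cartilage where both tissues averaged 1 CPM or more. Its cartilage level was 489 CPM at the lowest, 674 CPM at the median and 999.4 CPM at the highest. Its synovium level was 20.2 CPM at the lowest, 28.2 CPM at the median and 49.2 CPM at the highest. No synovium library reached any cartilage library, and the difference was 4.54 on the log2 scale (SE 0.07, adjusted p = 6.88e-33, edgeR). The difference was 4.54 in ACLT, 4.59 in RECON and 4.48 in REPAIR knees, and the lowest cartilage level was that of REPAIR 7, which is 1 of the 4 knees that stood apart.

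Of the transcripts called higher in synovium, the one with the highest mean level there was ENSSSCT00000089736.2 (8349 bases), which was plentiful in both tissues. Its level in synovium was 9567 CPM at the lowest, 30601 CPM at the median and 65333 CPM at the highest. In cartilage it was 8971 CPM at the lowest, 15166 CPM at the median and 30711 CPM at the highest. The groups overlapped widely, and in 3 of 35 knees the level was higher in cartilage. Within knees the difference was -1.01 on the log2 scale (SE 0.13, adjusted p = 3.77e-08, edgeR). It was -1.23 in ACLT, -0.66 in RECON (adjusted p = 0.0159, edgeR) and -1.14 in REPAIR knees.

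Under the same limit on level, the smallest adjusted p towards synovium was that of ENSSSCT00000062232.3 (1939 bases). In synovium it lay at 60.3 CPM in the lowest library, 80.1 CPM in the median one and 123 CPM in the highest one. In cartilage the corresponding values were 6.70, 13.2 and 21.2 CPM. The tissues did not overlap, and the difference was -2.68 on the log2 scale (SE 0.07, adjusted p = 6.09e-27, edgeR). The highest cartilage level was again in a knee that stood apart, RECON 7. Leaving out the 4 knees changed the differences of these 4 transcripts to 17.39, 4.58, -1.001 and -2.74 in the order of their description.

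**Figure D2:**
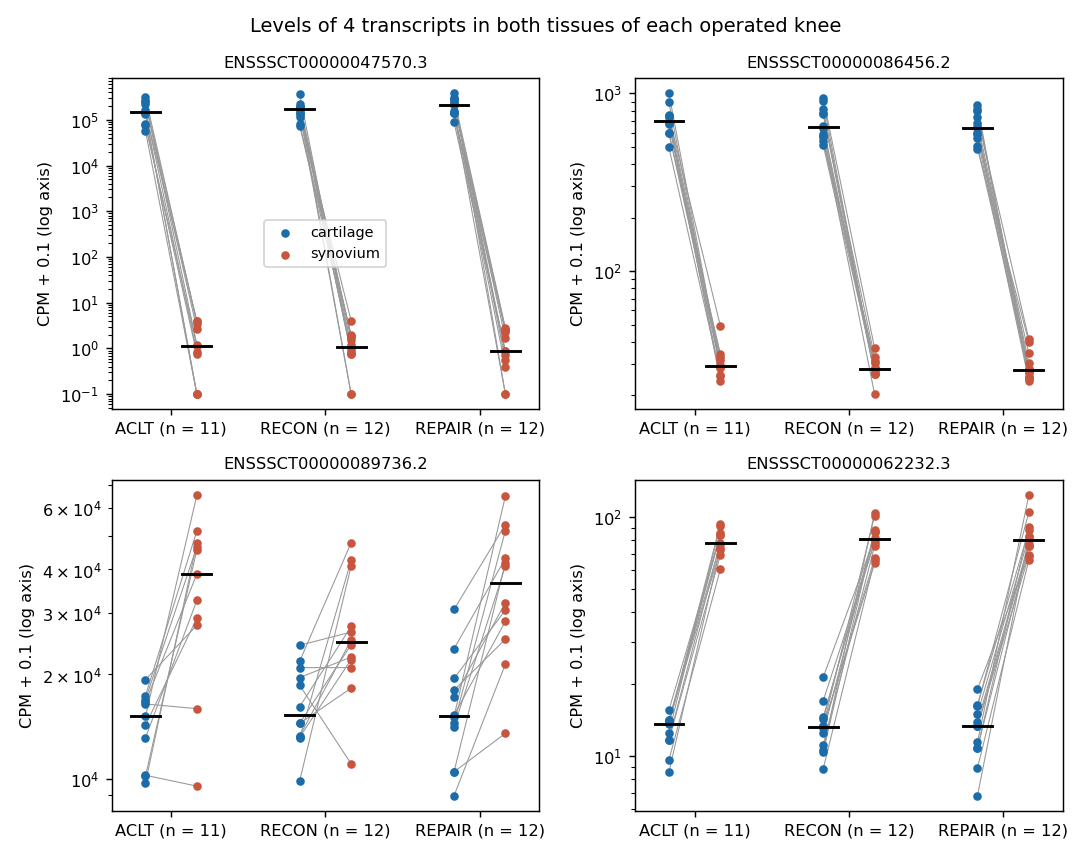
Levels of the 4 transcripts (CPM with 0.1 added, log axes) in cartilage (blue) and synovium (red) of each operated knee, with grey lines joining the tissues of a knee and black bars at the medians. The tissues are separated for ENSSSCT00000047570.3, ENSSSCT00000086456.2 and ENSSSCT00000062232.3 in all 3 surgeries, while for ENSSSCT00000089736.2 the levels overlap and 3 of 35 knees run the other way.

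Counts in cartilage were concentrated in few transcripts. The 10 most abundant transcripts of a library took 34.2% ± 4.49 (SD, n = 35) of the counts in cartilage and 20.9% ± 3.64 (SD, n = 35) in synovium. The difference within knees was 13.3 percentage points (SD 4.71), with cartilage higher in 35 of 35 knees (two-sided paired permutation test, 100000 resamples, p = 1e-05, the smallest it can give, adjusted p = 1e-05 over 3 measures). The number of transcripts needed to reach 50% of the counts was 119 on average in cartilage, from 20 to 356 with a median of 105. In synovium it was 540 on average, from 266 to 848 with a median of 552. Cartilage needed fewer transcripts than synovium in all 35 knees, with a mean difference of -421 (SD 137, permutation p = 1e-05). Without the 4 knees these differences were 13.8 percentage points and -424 transcripts. On the TPM scale, which corrects for transcript length, both gaps were smaller and had the same direction in all 35 knees. There the 10 most abundant transcripts took 23.8% in cartilage and 14.9% in synovium, a difference of 8.92 percentage points (SD 2.66). The number of transcripts to reach 50% of the TPM was 114 in cartilage and 286 in synovium, a difference of -172 (SD 68.0, permutation p = 1e-05). A single transcript took up to 26.6% of a cartilage library and up to 12.0% of a synovium library.

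**Figure D3:**
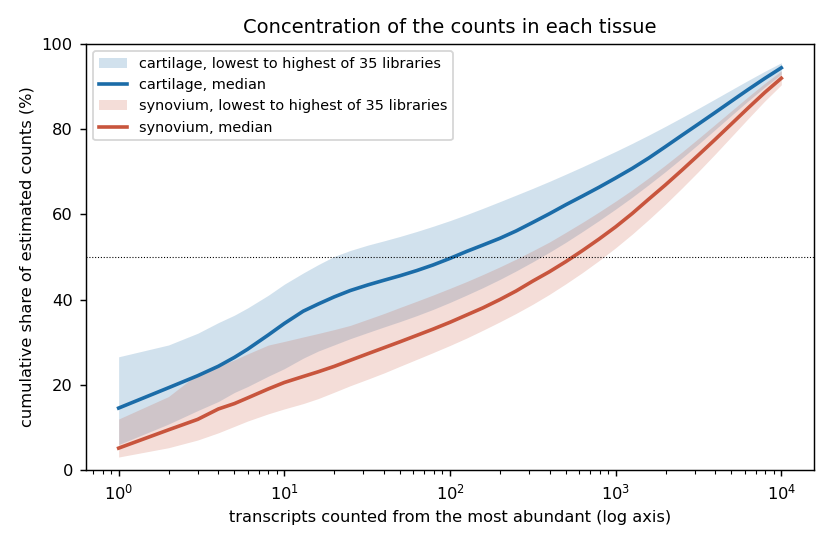
Cumulative share of the estimated counts (y axis, %) against the number of transcripts counted from the most abundant one (x axis, log scale) in 35 cartilage and 35 synovium libraries of operated knees. Lines are medians, bands run from the lowest to the highest library, and the dotted line marks 50% of the counts, which the median cartilage library reaches at 105 transcripts and the median synovium library at 552.

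Fewer transcripts were also detected in cartilage at an equal total depth. This measure is not separate from the concentration of the counts, since counts held by the most abundant transcripts leave less depth for the others. The part of the concentration in it was not tested. At an equal depth of 8211317 counts, 21309 transcripts on average had at least 10 counts in a cartilage library and 23040 in a synovium library. The mean difference was -1731 (SD 762, permutation p = 1e-05), and the order was the other way in 1 of 35 knees, RECON 7, with 22459 in cartilage and 22395 in synovium. RECON 7 is among the 4 knees that stood apart, and without them the mean difference was -1854 (SD 667) and cartilage was higher in 0 of 31 knees. No difference among surgeries in these 3 measures passed in either tissue by permutation of the surgery labels (6 tests, 10000 resamples, smallest p = 0.0588 and smallest adjusted p = 0.353). That p belonged to the number of transcripts detected in cartilage. The median number of transcripts to reach 50% of the cartilage counts was 141 in ACLT, 120 in RECON and 73.5 in REPAIR knees.

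Of the 10 transcripts with the highest mean level in each tissue, 5 were shared. The cartilage list took 34.0% of the cartilage counts, and 6 of its members were called higher in cartilage and 2 higher in synovium. The synovium list took 20.7% of the synovium counts, and 7 of its members were called higher in synovium and 1 higher in cartilage. In each list 3 members differed by less than 2-fold. Among all transcripts at 1000 CPM or more, 69 reached that level in cartilage and 53 in synovium. Of the 69, 49 were called higher in cartilage and 21 (30.4%) by at least 32-fold. Of the 53, 40 were called higher in synovium and 2 (3.77%) by at least 32-fold. At 100 CPM or more the numbers beyond 32-fold were 77 of 1174 in cartilage and 61 of 1092 in synovium. Each of these lists was picked by the level in 1 tissue, which favours members higher in that tissue. Among all 29326 tested transcripts, 34.2% were called higher in cartilage and 31.8% higher in synovium. At 32-fold or more these were 503 and 1126 transcripts.

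Counts moved with these calls, since the transcripts called higher in cartilage took between 58.6% and 75.04% of the cartilage counts (median 70.4%) and between 24.2% and 30.3% of the synovium counts (median 27.9%). Those called higher in synovium took between 48.3% and 59.5% of the synovium counts (median 54.0%) and between 13.8% and 22.4% of the cartilage counts (median 16.7%). These shares were set by the calls and are a description with no test.

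Few transcripts were restricted to 1 tissue by a rule that all 35 libraries of each tissue had to meet. The rule left out transcripts such as ENSSSCT00000047570.3, which had up to 78 counts in a synovium library. At least 10 counts were reached in all 35 cartilage and all 35 synovium libraries by 13771 of 46295 transcripts, in all cartilage libraries by 15795 and in all synovium libraries by 15709. No library of either tissue reached 10 counts for 10223 transcripts. A total of 21 transcripts had at least 10 counts in every cartilage library and at most 3 in every synovium library. Their mean cartilage levels ran from 2.53 to 2029 CPM, their lengths from 670 to 6472 bases, and together they took between 0.215% and 0.723% of the cartilage counts (median 0.387%). Each was at least 12.7-fold higher in cartilage when synovium was set at 3 counts per library. In the other direction 2 transcripts met the same limits, at 14.1 and 225 CPM in synovium and lengths of 6393 and 6507 bases, each at least 60.3-fold higher there. The same limits were met in the CON knees by 19 of the 21 and by 1 of the 2. These floors cover counting error only.

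The direction of a called difference was shared by most knees. Of the 10030 transcripts called higher in cartilage, 2167 were higher there in all 35 knees and 5911 in at least 30. Of the 9319 called higher in synovium, 2295 were higher there in all 35 knees and 5717 in at least 30. The calls came from the same 35 knees, so this sharing was partly set by the calls and is a description. The 35 cartilage values did not overlap the 35 synovium values at all for 1853 tested transcripts (6.32%), 904 (3.08%) with cartilage above and 949 (3.24%) with synovium above. At the other end, 4154 tested transcripts were higher in cartilage in 15 to 20 knees. Among the 9376 transcripts with at least 10 CPM in both tissues, 193 (2.06%) were over 2-fold higher in cartilage in at least 5 knees and over 2-fold higher in synovium in at least 5 others, and 18 of these 193 were called.

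**Figure D4:**
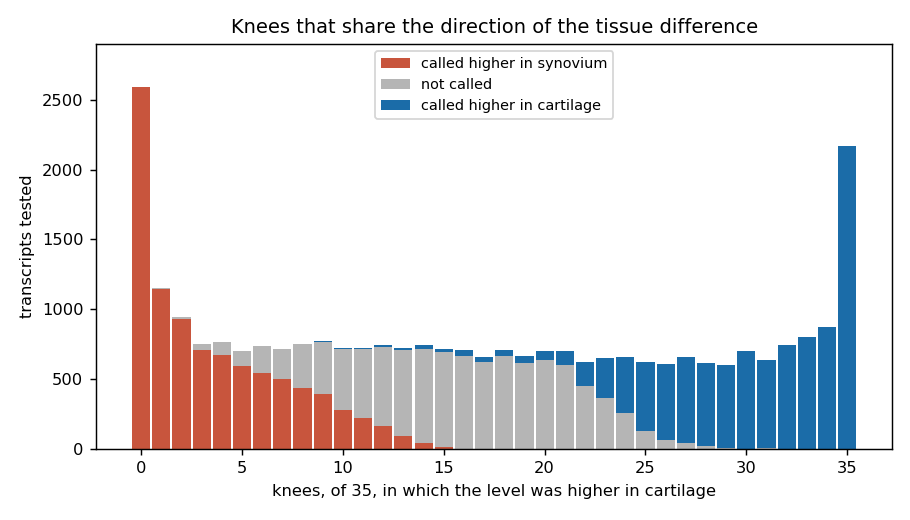
Number of tested transcripts (y axis) by the number of the 35 operated knees in which the level was higher in cartilage (x axis), coloured by the call of the edgeR test. The outermost bars hold 2167 transcripts higher in cartilage in all 35 knees and 2592 transcripts higher in cartilage in none of them, and the uncalled transcripts fill the middle. A knee with equal levels in both tissues counts as not higher in cartilage. The bar of 2592 is therefore larger than the 2295 transcripts called and higher in synovium in all 35 knees.

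Knees differed in how closely they followed the shared pattern. The log2 differences of a knee correlated across the tested transcripts with the mean of the other knees at r between 0.620 and 0.815 (median 0.768), a description in which transcripts are not independent. The share of called transcripts whose sign in a knee was that of the call ran from 79.2% to 90.0% (median 86.1%). Each knee took part in the calls, so this share was partly set by them. The lowest correlations were 0.620 in RECON 7, 0.665 in RECON 12, 0.682 in ACLT 4, 0.683 in ACLT 11 and 0.687 in REPAIR 7. The medians by surgery were 0.761 in ACLT, 0.753 in RECON and 0.779 in REPAIR knees.

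This correlation was lower in the knees whose cartilage library held more of the synovium set. Over 35 knees, Pearson's r with the log2 share of that set was -0.73 and Spearman's rho was -0.68 (permutation p = 1e-05 each, the smallest 100000 resamples can give, adjusted p = 5e-05 over 5 relations). Without REPAIR 7 and RECON 7, the knees farthest from the median share, r was -0.65. Within ACLT, RECON and REPAIR knees it was -0.76, -0.74 and -0.72. The transcripts of the set are among those from which each knee's correlation was computed, so the 2 measures share data. With the total counts of the synovium library r was 0.41 and rho 0.42 (permutation p = 0.015 and 0.0134, adjusted p = 0.0374 and 0.0336), 0.36 without ACLT 3 and ACLT 9, and 0.53, 0.21 and 0.58 within the 3 surgeries. The remaining 3 relations did not pass: r was -0.28 for the share of the cartilage set in synovium (rho -0.24), 0.25 for the total of the cartilage library (rho 0.29) and 0.09 for the share of the 10 most abundant cartilage transcripts (rho -0.06), with adjusted permutation p of 0.183, 0.186 and 0.612 for r.

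Levels varied more between knees in synovium than in cartilage. Among the 9376 transcripts with at least 10 CPM in both tissues, the median SD of log2 CPM over 35 knees was 0.27 in cartilage, 0.30 in synovium and 0.37 for the difference within knees. The SD was larger in synovium for 6282 of these transcripts (67.0%). Among the 21806 transcripts with at least 1 CPM in both tissues the share was 64.5%. These shares are descriptions across transcripts, with no test.

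The tissue difference was then compared among surgeries, which is the question of whether the treatment of the torn ligament changed how cartilage and synovium diverge. Within ACLT knees 14191 transcripts (48.4%) were called, 7339 (25%) higher in cartilage and 6852 (23.4%) higher in synovium. Within RECON knees 14551 (49.6%) were called, 7502 (25.6%) and 7049 (24%). Within REPAIR knees the number was 14629 (49.9%), with 7151 (24.4%) higher in cartilage and 7478 (25.5%) higher in synovium. Without the 4 knees the numbers were 13404, 14318 and 14514. All 3 surgeries called 11320 transcripts the same way, 5604 higher in cartilage and 5716 higher in synovium. At least 1 surgery called 17901, a single surgery called 3751, and 8 were called in opposite directions by a pair of surgeries.

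No transcript passed when the tissue differences of the surgeries were set against each other. The edgeR quasi-likelihood test called 0 (0%) of 29326 for RECON minus ACLT, for REPAIR minus ACLT and for REPAIR minus RECON. The numbers at an unadjusted p under 0.05 were 695 (2.37%), 1144 (3.90%) and 1623 (5.53%). With no difference between surgeries, a share of 0.05 of the tests would fall there. The smallest adjusted p were 1, 0.687 and 0.585. The edgeR counts were also 0, 0 and 0 without the 4 knees, with 811, 1131 and 1410 at an unadjusted p under 0.05. DESeq2 with the same block called 114, 128 and 198. The log2 differences of pairs of surgeries correlated across tested transcripts at r of 0.841, 0.846 and 0.851, and at 0.947, 0.950 and 0.944 among the 9376 transcripts with at least 10 CPM in both tissues. The 95% interval of the difference between surgeries reached a median of 0.32 on the log2 scale to either side among these 9376, and lay within 1 of no difference for 87.6%, 87.5% and 86.8% of them. Over all tested transcripts it lay within that bound for 47.6%, 47.3% and 47.1%, so that for the other transcripts the interval did not exclude a 2-fold difference between surgeries.

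The tissue difference of the operated knees was last set against that of the CON knees. In the fit of all 47 knees, the tissues differed at 19775 (64.9%) of 30447 transcripts in operated knees, 10207 (33.5%) higher in cartilage and 9568 (31.4%) higher in synovium. In CON knees they differed at 14189 (46.6%), 6921 (22.7%) and 7268 (23.9%), and the numbers of knees were unequal. Of the transcripts called in both, 12861 in all, 135 lay on opposite sides. The log2 differences correlated across transcripts at r = 0.864, and at 0.906 among 8937 transcripts with at least 10 CPM in all 4 groups of libraries.

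The size of the tissue difference changed for 2343 transcripts (7.7%) by a test of the change itself (edgeR quasi-likelihood, operated minus CON). It moved towards cartilage for 1098 (3.61%) and towards synovium for 1245 (4.09%). Without the 4 knees 2411 were called, 1073 and 1338. DESeq2 with the same block called 4304, and limma called 3025 with all knees and 4211 without CON 11. Among the 2343 edgeR calls, by the fitted values, the tissue difference was narrower in operated knees for 1026, wider for 586 and on the other side of equality for 731. These classes describe transcripts picked by the same contrast and did not ask for a call in either kind of knee. Their shares over all tested transcripts were not counted. Over all tested transcripts, the median absolute tissue difference was 0.71 in operated and 0.74 in CON knees. The median SE was 0.18 in operated and 0.32 in CON knees. Only 135 of all tested transcripts were called in both and on opposite sides. The 12 CON animals also gave operated knees, and the fit treated knees as independent.

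For most of these calls the larger change was in synovium. Among calls that moved towards cartilage, the synovium level was lower in operated than in CON knees by a median log2 value of -0.44 and the cartilage level was higher by 0.10. Among calls that moved towards synovium, the synovium level was higher by a median of 0.51 and the cartilage level changed by -0.06. Of 2158 called transcripts with at least 1 CPM in all 4 groups of libraries, 1987 (92.1%) had the larger change in synovium, compared with 68.0% of all transcripts at such levels. These are descriptions of transcripts chosen by the same contrast, with no test. RNA quality moved with the same groups, since the RNA integrity numbers listed by the study were lower on average in operated than in CON knees in both tissues, and the share of mapped reads was lower in operated than in CON synovium. With the integrity number of each library as a covariate, edgeR called 2735 transcripts for operated minus CON, 1321 towards cartilage and 1414 towards synovium. The part of RNA quality in the share of changes that lay in synovium was not tested.

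The smallest adjusted p for a change towards cartilage was that of ENSSSCT00000092050.1 (1812 bases), a transcript abundant in cartilage of both kinds of knee. Its cartilage level had a median of 1033 CPM in operated knees (454 to 2235) and 796 CPM in CON knees (446 to 1525). In synovium its median was 3.48 CPM in operated knees (0 to 200) and 162 CPM in CON knees (3.99 to 279). Cartilage levels overlapped between operated and CON knees, and so did the extremes in synovium, where the medians lay far apart. The tissue difference was 8.35 on the log2 scale in operated and 2.75 in CON knees, a change of 5.60 (SE 0.69, adjusted p = 9.95e-07, edgeR).

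The smallest adjusted p for a change towards synovium was that of ENSSSCT00000018798.5 (2932 bases). Its cartilage median was 61.7 CPM in operated knees (41.7 to 88.1) and 68.0 CPM in CON knees (46.5 to 123). In synovium the median was 36.3 CPM in operated knees (15.1 to 53.5) and 12.9 CPM in CON knees (8.74 to 30.6). The cartilage levels overlapped over most of their range and the synovium levels over part of it. The tissue difference was 0.92 on the log2 scale in operated and 2.23 in CON knees, a change of -1.30 (SE 0.14, adjusted p = 3.23e-08, edgeR).

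**Figure D5:**
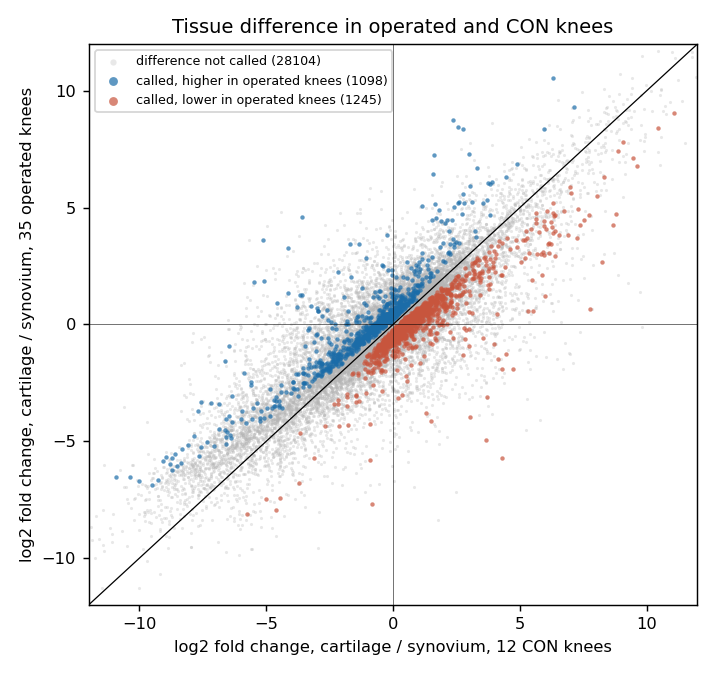
Log2 fold change of cartilage over synovium in 12 CON knees (x axis) and in 35 operated knees (y axis) for 30447 transcripts, with a line where they are equal. The 1098 transcripts whose difference moved towards cartilage are blue and lie above the line, the 1245 that moved towards synovium are red and lie below it, and 48 transcripts beyond 12 on either axis are outside the frame.

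The concentration of counts in cartilage relative to synovium was smaller in operated than in CON knees by 1 of 2 measures. The gap in the number of transcripts needed for 50% of the counts was -421 ± 137 (SD, n = 35) in operated and -629 ± 186 (SD, n = 12) in CON knees (two-sided permutation test, p = 0.00021, adjusted p = 0.00042). The mean number was 119 in operated and 124 in CON cartilage, and 540 in operated and 753 in CON synovium, so that the means lay apart in synovium and close together in cartilage. The gap for the 10 most abundant was 13.3 and 14.8 percentage points (permutation p = 0.352). Both tests exchanged the labels freely over knees, although the 12 CON animals also gave operated knees. The part of RNA quality in these gaps was not tested. Shares of the CON-chosen sets in the operated libraries can be read beside their CON values, although the choice of sets in CON favours the extremes there. The cartilage set took between 0.146% and 0.408% of CON synovium (median 0.255%) and between 22.4% and 40.1% of CON cartilage (median 31.3%). The synovium set took between 5.90% and 8.03% of CON synovium (median 6.66%) and between 0.0738% and 0.170% of CON cartilage (median 0.0936%). In both tissues the median share of the other tissue's set was thus higher in operated knees, by description alone.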

How the data were processed

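RNA of articular cartilage and synovium was sequenced as ribosome-depleted libraries in 100 bp paired-end reads, all pooled and sequenced together. The authors estimated transcript abundance with Salmon 1.8.0 on Sscrofa11.1 transcripts from Ensembl, whose release is not given in the sources used here, after quality reports with FastQC 0.11.9 and MultiQC 1.12. The deposited expected counts (estimated counts, which Salmon divides among transcripts that share sequence, so that a transcript of a multi-transcript gene can gain or lose reads to another) were rounded to whole numbers. The deposited TPM and the effective length, given in bases by the authors' files, served for values per length and for an alternative. The unit of the test is therefore the transcript, and 0 of 46295 identifiers matched a gene table.

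Transcripts passing filterByExpr at a minimum count of 10 were fitted in edgeR 4.0.16 (TMM, quasi-likelihood, Benjamini-Hochberg adjustment, threshold 0.05) with R 4.3.3, with knee as block and a cartilage minus synovium coefficient for each surgery, whose mean is the operated difference. The pairing came from the labels, where both tissues carry 1 number, and from the study's supplement, where they carry 1 animal and side in 47 of 47 knees. Deviations from the group means correlated at a mean r of 0.0643 (0.000158 to 0.156) within 35 knees and at -0.00185 between different knees. Differences between surgeries were contrasts of that fit, and operated minus CON came from the fit of 47 knees. Values per knee are log2 of CPM plus 0.5. The fits were also run on simulated counts without knee effects, in which most transcripts had no tissue difference. In the real counts most transcripts differed, so that run does not check the scaling or the block under such differences.

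Alternatives were no block, DESeq2 size factors, no filter, DESeq2 1.42.0, limma 3.58.1 on within-knee differences (prior count 2), effective length, ACLT 12 added, RNA integrity number as a covariate and each knee left out. Leaving out the 4 knees, the CON-chosen sets, the tests of library measures among surgeries and against CON, and the relations over knees were chosen after seeing the data. The comparison and its measures were chosen with earlier results of these data known. For the operated difference the text names, in each direction, the called transcript of highest mean level in the higher tissue and that of smallest adjusted p with at least 1 CPM in both tissues; for operated minus CON, that of smallest adjusted p in each direction with at least 1 CPM in all 4 groups. No pair of replicate libraries agreed within sampling noise (lowest chi-square per degree of freedom 21.7). Floors and depth cover counting error only, and PCR copies were not removed by molecular identifiers. Gene lists and marker genes were planned and could not be applied without gene names.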

Additional observations from a re-analysis of the deposited data

Results flagged for a closer look

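The tissue difference itself differed between operated and CON knees for 2343 of 30447 transcripts in the edgeR test of the change (7.7%), 1098 towards cartilage and 1245 towards synovium, with a median absolute change of 0.59 on the log2 scale. The animals of the 12 CON knees also gave operated knees. The median share taken by the synovium set was 5.32% in operated and 6.66% in CON synovium, although the choice of the set in CON knees favours a higher share there. The part of that share in the 2343 calls was not tested.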

How the results depend on the processing

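The counts of transcripts that differed between tissues in operated, ACLT, RECON and REPAIR knees stayed within 1.5 times of the reported ones under every alternative but 1, the glmTreat test against a fold of 2, which asks for more and gave 7013. Operated counts were 19414 with no replicate block, 20217 by DESeq2 and 20301 by limma. Without the knee as replicate block the difference REPAIR minus RECON had 1 call and operated minus CON 2552, and the pairing changed no other call named in the text. DESeq2 with the block gave 114 calls for RECON minus ACLT, 128 for REPAIR minus ACLT, 198 for REPAIR minus RECON and 4304 for operated minus CON, and the cause was not tested. The RNA integrity number as a covariate gave 1 call for REPAIR minus ACLT and 2735 for operated minus CON. Without each knee in turn, by limma, counts ran from 20138 to 20298 for operated knees, 14698 to 15432 for ACLT, 14913 to 15802 for RECON and 14998 to 15794 for REPAIR. They ran from 0 to 1 for RECON minus ACLT (1 without RECON 9) and for REPAIR minus ACLT (1 without ACLT 3), were 0 for REPAIR minus RECON, and ran from 2113 (without CON 9) to 4211 (without CON 11) for operated minus CON, against 3025 with all knees. The named transcripts kept their direction and call under every setting run on them. At low levels many intervals between surgeries did not exclude a 2-fold difference. On TPM in place of counts, the gap in the number of transcripts for 50% of the total was -172 and that of the 10 most abundant 8.92 percentage points. The measure at equal depth was not run on TPM, which keeps no counts.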
